A study of Mus musculus with 27 samples.

Results

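Chronic stress was compared with no stress in CD11b+ cells of the mouse prefrontal cortex (PFC), over 4 RNA-seq libraries of the 15 in the minocycline experiment and of the 27 in the whole series. The PFC CUMS cells came from mice put through the CUMS (chronic unpredictable mild stress) protocol, a sequence of changing mild stressors used to model depression (2 libraries), and the PFC NAIVE cells from a naive control group (2 libraries). All mice are labelled C57BJ6, the tissue is the pre-frontal cortex, and the cells were sorted by FACS on CD11b, a surface integrin carried by microglia and other myeloid cells. No drug is labelled for these groups. The labels give neither age, sex nor the number of animals behind a library, so a p-value here covers only how far such libraries differ, which may be technical. No batch is labelled, so one that follows the groups cannot be told apart from them. From the same experiment, PFC CUMS with minocycline (CUMS_M, 3 libraries) and the hippocampal (HC) groups CUMS (3), CUMS_M (3) and NAIVE (2) are drawn on where stated. Of 53412 genes in the table, the 12934 with 10 or more counts in 2 or more of the 4 libraries were tested. Of these, 540 passed only through the PFC CUMS libraries.

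Microglia are the resident macrophages of the brain, and their identity genes (Cx3cr1, P2ry12, Tmem119) are known to change with injury and disease. Astrocytes take up glutamate and potassium, and endothelial and mural cells build the vessel wall. A CD11b sort should keep their RNA low, so the genes of microglia and those of other cells are described apart.

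The PFC CUMS libraries held 12400922 and 10570300 counts, against 7867323 and 8199498 in PFC NAIVE, and 18751 and 17329 genes with a count, against 13943 and 15158. Thinned at random to the 7867323 counts of the smallest library, PFC CUMS still had 17857 and 16979 genes with a count, against 13943 and 15134 in PFC NAIVE. The label CD11b+ was met in all 4 libraries. Itgam, which encodes CD11b, had 491 and 474 CPM (counts scaled to a common effective library size) in PFC CUMS and 623 and 557 CPM in PFC NAIVE, although 68.7% of its exon bases are shared with other genes on its strand. The 24 microglial identity genes made up 9.48 and 9.91% of the counts in PFC CUMS and 10.8 and 9.92% in PFC NAIVE, with 0 members lacking counts in any of the 4. PFC NAIVE 1 stood apart from the other 14 libraries, with a score of 78 on the first principal component, the next being 43.7, and the highest level of neuronal genes. List medians that move with it are given with and without it.

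Most genes called between PFC CUMS and PFC NAIVE were higher in PFC CUMS and had low CPM in both groups. With the edgeR quasi-likelihood test, 125 genes had an adjusted p under 0.05 (0.966% of those tested), 110 of them higher in PFC CUMS (0.85%) and 15 lower (0.116%). The higher genes had a median level of 10.8 CPM in PFC CUMS and 1.88 CPM in PFC NAIVE, and 16 of them had 0 counts in both PFC NAIVE libraries. The lower genes had median levels of 85.4 CPM in PFC CUMS and 115 CPM in PFC NAIVE. Among the 1986 genes with a mean above 100 CPM, 2 were called higher and 8 lower, while among the 3904 genes between 1 and 10 CPM 62 were called higher and 0 lower. Of the 110 higher genes, 27 are among the 175 tested genes in lists of other cell types (15.4% of these). A single one, 1 of 95 (1.05%), is in a microglial list, against 0.85% called higher over all tested genes. Of the 110, 43 had entered the test only through their PFC CUMS counts. A gene of that kind had to have higher raw counts in PFC CUMS, whose libraries were the larger. With PFC CUMS 1, PFC CUMS 2, PFC NAIVE 1 or PFC NAIVE 2 left out, the fit called 23, 12, 32 or 558 genes, and DESeq2 called 364 (2.81%).

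**Figure D1:**
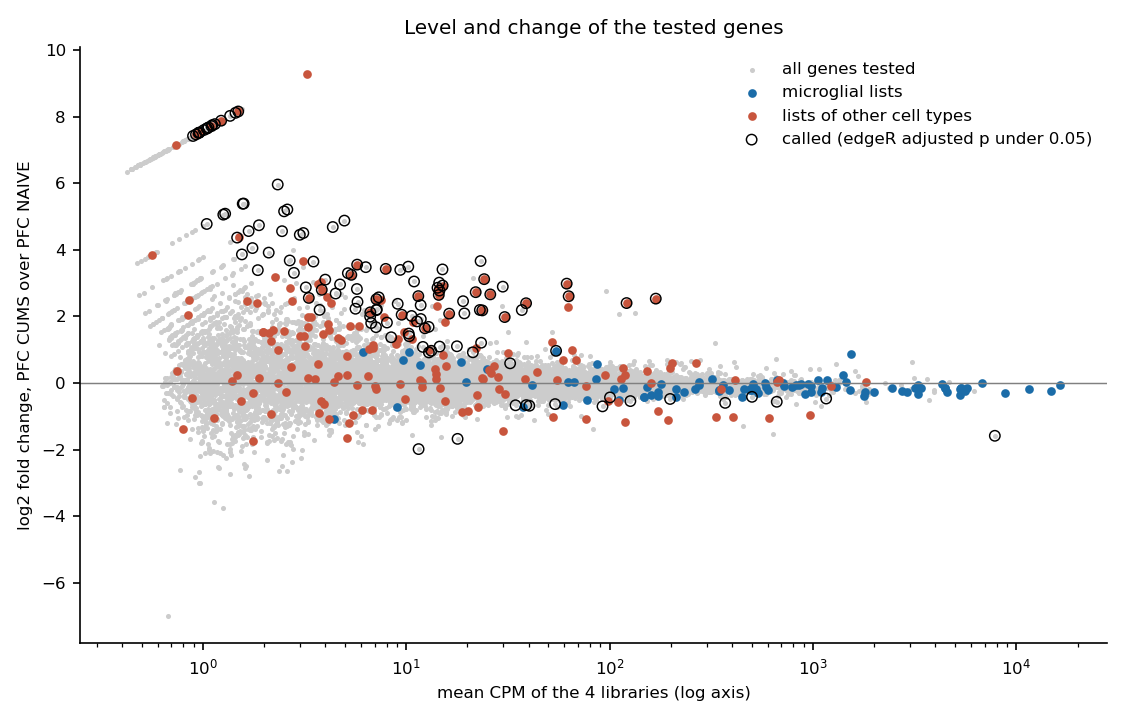
Each point is a tested gene, with its mean CPM over the 4 libraries (x, log axis) and its log2 fold change, PFC CUMS over PFC NAIVE (y). Circled genes were called by edgeR. The 110 higher genes sit mostly at low CPM, while the microglial lists (blue) lie near 0 at the right, with a median of -0.16 over 95 tested genes.

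Genes of astrocytes moved together. Of 36 listed genes 35 were tested. Of those, 17 rose (48.6%, against 0.85% of all tested genes), 0 fell and 18 did not pass. In 34 of the 35 both PFC CUMS values lay above both PFC NAIVE values, an order seen in 22.6% of all tested genes, although 4 of the 35 entered the test through PFC CUMS alone. Their median log2 fold change was 2.52, against 0.0032 over all tested genes, with the 2 members at 0 in PFC NAIVE (Bmpr1b and Agt) set to their lower bounds. Markers of astrocytes stood at a mean level of 4.21 and 4.39 log2 CPM in PFC CUMS and 1.84 and 1.99 log2 CPM in PFC NAIVE. In sorted cells measured in bulk, more cells of a type and more RNA per cell cannot be told apart, and the part that astrocyte RNA in the sort had in these rises was not tested.

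The listed astrocyte genes that passed with every library left out in turn were Aldh1l1, Ntsr2 and Tril. Aldh1l1, a folate enzyme that marks astrocytes, had 10.1 and 9.32 CPM in PFC CUMS and 0.658 and 1.36 CPM in PFC NAIVE. Ntsr2, a neurotensin receptor, had 14.6 and 14.4 CPM in PFC CUMS and 1.58 and 1.11 CPM in PFC NAIVE. Tril, a partner of the toll-like receptor TLR4, had 10.9 and 13.4 CPM in PFC CUMS and 2.76 and 1.49 CPM in PFC NAIVE. The groups do not overlap in these genes, as in all 110 genes called higher, and the gap between groups exceeds the gap between replicates. PFC CUMS lay wholly above in 22.6% of all tested genes, and the calls were made on these same values. The log2 fold change of Tril was 2.52 ± 0.37 (SE, edgeR adjusted p = 0.00274, at most 0.0437 with a library left out). On the strand opposite to Tril, 21.4% of its exon bases are covered by another gene, as are 11.0% for Aldh1l1, and the strand setting of the counting is not given in the sources used here.

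The promoters of these genes are shown because the genes rose together and passed in every leave-out. RefSeq gives them on GRCm38.p6, from 250 bases before to 50 after the start of transcription: Aldh1l1 at chr6:90550543-90550842 on the plus strand, Ntsr2 at chr12:16653220-16653519 on the plus strand and Tril at chr6:53820776-53821075 on the minus strand. Capitals mark CCAAT on either strand.
Aldh1l1: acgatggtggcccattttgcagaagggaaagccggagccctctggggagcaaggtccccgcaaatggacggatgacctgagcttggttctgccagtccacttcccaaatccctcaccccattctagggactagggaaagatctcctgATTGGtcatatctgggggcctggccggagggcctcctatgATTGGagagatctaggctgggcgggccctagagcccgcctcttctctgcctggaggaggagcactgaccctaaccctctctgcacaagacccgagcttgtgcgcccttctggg
Ntsr2: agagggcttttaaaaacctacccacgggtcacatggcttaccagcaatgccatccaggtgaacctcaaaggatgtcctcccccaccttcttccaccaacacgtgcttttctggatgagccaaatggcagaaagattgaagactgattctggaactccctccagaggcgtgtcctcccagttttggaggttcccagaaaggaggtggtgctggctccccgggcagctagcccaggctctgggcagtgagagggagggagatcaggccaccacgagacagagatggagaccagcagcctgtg
Tril: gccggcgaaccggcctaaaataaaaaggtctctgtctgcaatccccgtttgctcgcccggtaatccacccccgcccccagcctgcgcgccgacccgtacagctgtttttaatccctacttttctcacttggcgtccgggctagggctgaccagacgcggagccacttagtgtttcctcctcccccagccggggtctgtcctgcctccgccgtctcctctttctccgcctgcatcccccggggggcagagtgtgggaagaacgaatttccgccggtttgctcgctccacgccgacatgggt
Both motifs searched were chosen after the values were seen. CCAAT, the box bound by NF-Y, occurred 2 times in the Aldh1l1 window, and 37.4% of all 32851 promoters of this length hold it on at least 1 strand. TTGGCA, a half-site of the nuclear factor I family, occurred 0 times in these windows and is held by 14.1% of all promoters. The motifs overlap where ATTGGCA occurs.

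Listed genes with higher CPM went the same way but lost their calls in some leave-outs. Slc1a2, the main glutamate transporter of astrocytes, had 273 and 303 CPM in PFC CUMS and 47.0 and 52.5 CPM in PFC NAIVE (log2 fold change 2.53 ± 0.44, edgeR adjusted p = 0.0297). Clu, the secreted chaperone clusterin, had 101 and 115 CPM in PFC CUMS and 16.2 and 19.3 CPM in PFC NAIVE (2.6 ± 0.34, edgeR adjusted p = 0.00685). In both genes the PFC CUMS values are several-fold above both PFC NAIVE values. The call of Slc1a2 was lost without any one of the 4 libraries (edgeR adjusted p 0.0565 to 0.177), and that of Clu without PFC CUMS 2 or PFC NAIVE 1 (0.057 and 0.0977).

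Not every listed gene followed. Glul, glutamine synthetase, had 1831 and 1886 CPM in PFC CUMS and 1782 and 1830 CPM in PFC NAIVE, a log2 fold change of 0.04 ± 0.10 (edgeR adjusted p = 0.884). Slc39a12, a zinc transporter, had 24.0 and 26.0 CPM in PFC CUMS and 26.0 and 19.7 CPM in PFC NAIVE, so its groups overlap. Slc1a3, the other astrocytic glutamate transporter, gave 0.60 ± 0.16 (edgeR adjusted p = 0.0873). Gfap, the intermediate filament used as a marker of reactive astrocytes, had 7.44 and 5.16 CPM in PFC CUMS and 1.45 and 2.72 CPM in PFC NAIVE, and its change of 1.59 ± 0.53 did not pass (edgeR adjusted p = 0.175).

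**Figure D2:**
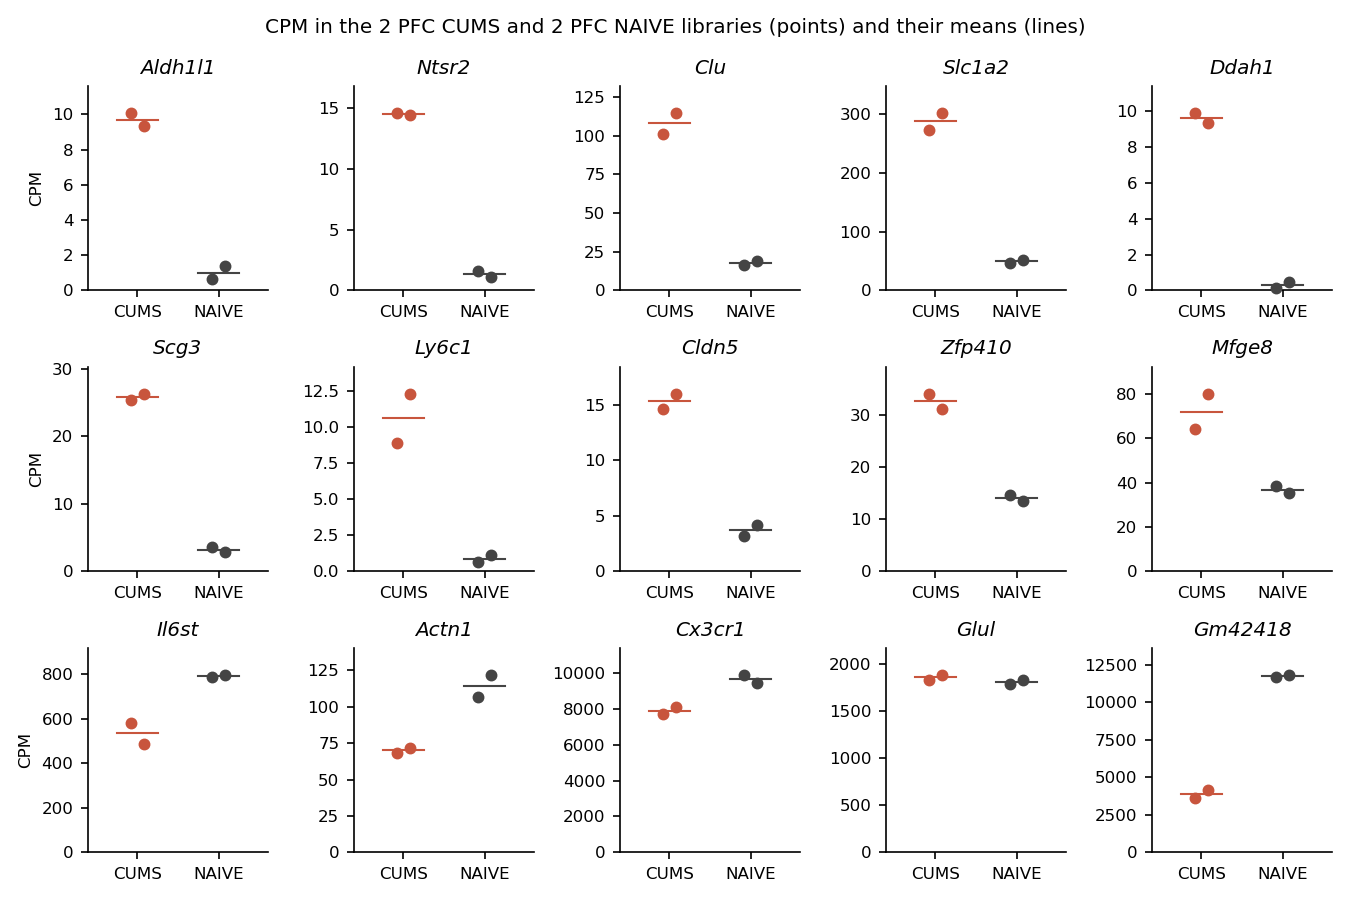
CPM (y, from 0) of 15 genes in each PFC CUMS library (left, red) and each PFC NAIVE library (right, dark), with lines at the group means. Astrocyte and vessel genes are several-fold higher in PFC CUMS, Glul is level at 1831 and 1886 CPM against 1782 and 1830 CPM, and Il6st, Actn1 and Gm42418 are lower.

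The rises outside the lists held 82 genes, here named after their values were seen except where the naming rule takes them. Those that passed with every library left out were Ddah1, Slc25a18, Acsl6, Scg3, Adcyap1r1, Plxnb1 and Zfp410. Ddah1, which degrades an inhibitor of nitric oxide synthesis, had 9.92 and 9.32 CPM in PFC CUMS and 0.132 and 0.495 CPM in PFC NAIVE (log2 fold change 4.87 ± 0.64, edgeR adjusted p = 0.00218). Slc25a18, a mitochondrial glutamate carrier, had 8.68 and 8.12 CPM in PFC CUMS and 0 and 0.619 CPM in PFC NAIVE (4.68 ± 0.68, edgeR adjusted p = 0.00245). Both entered the test through PFC CUMS alone. Scg3, a granin of secretory granules, had 25.4 and 26.3 CPM in PFC CUMS and 3.55 and 2.85 CPM in PFC NAIVE (3.01 ± 0.40, edgeR adjusted p = 0.00218). Adcyap1r1, the receptor of the peptide PACAP, gave 2.57 ± 0.37, and Plxnb1, a semaphorin receptor, gave 2.34 ± 0.34 (edgeR adjusted p = 0.00245 for each). Both PFC CUMS values exceed both PFC NAIVE values in each of these genes, as in all 110 genes called higher and 22.6% of all tested genes. Among the largest rises, Spon1, an extracellular matrix protein, had 3.02 and 2.77 CPM in PFC CUMS and 0 counts in PFC NAIVE (at least 15.2-fold), and Klrd1, a receptor of natural killer cells, had 1.78 and 2.40 CPM in PFC CUMS and 0 counts in PFC NAIVE (at least 10.8-fold). Spon1 and Klrd1 rest on few counts. The lymphocyte list had a median of -0.87 over 4 tested genes of 14, with 0 called. Of the 4, 3 lay below PFC NAIVE in both PFC CUMS libraries, against 21.4% of all tested genes. Among them Ncr1 had 0.62 and 1.01 CPM in PFC CUMS and 2.24 and 3.22 CPM in PFC NAIVE.

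Bcan and Ncan, named after their values were seen, encode proteoglycans of the brain matrix. Bcan, which encodes brevican, had 35.3 and 51.4 CPM in PFC CUMS and 5.52 and 4.46 CPM in PFC NAIVE (log2 fold change 3.12 ± 0.44, edgeR adjusted p = 0.00743). Ncan, neurocan, had 28.4 and 26.8 CPM in PFC CUMS and 0.658 and 4.46 CPM in PFC NAIVE (3.41 ± 0.57, edgeR adjusted p = 0.0154). The call of Bcan was lost without PFC CUMS 2 or PFC NAIVE 1, and that of Ncan without either PFC CUMS library. Bcan, Ptprz1 and Cspg5 were the 3 members of the oligodendrocyte precursor list that rose, of 6 tested, while 0.85% of all tested genes rose. Of the list's 10 members, 4 did not pass the count filter. Among those, Pdgfra had 4 and 6 counts in PFC CUMS and 0 and 0 in PFC NAIVE. Gpr17 had 7 and 6 in PFC CUMS and 0 and 1 in PFC NAIVE. Neither was tested. The whole list made up 0.00989 and 0.0112% of the counts in PFC CUMS and 0.00233 and 0.00172% in PFC NAIVE. Bcan and Cspg5 are also made by astrocytes, and which cells the RNA of this list came from was not tested.

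Vessel genes were higher as well, but their level differed between the PFC NAIVE libraries. Of 34 endothelial genes, all tested, 6 rose (17.6%, against 0.85% of all tested genes): Emcn, Ly6c1, Ptprb, Mfsd2a, Flt1 and Cldn5. Another 28 did not pass and 0 fell, with a median of 1.44 over the list. Ly6c1, a surface protein of brain endothelium, had 8.91 and 12.3 CPM in PFC CUMS and 0.658 and 1.11 CPM in PFC NAIVE (3.55 ± 0.55, edgeR adjusted p = 0.00546). Cldn5, a tight junction claudin of the blood-brain barrier, had 14.6 and 16.0 CPM in PFC CUMS and 3.16 and 4.21 CPM in PFC NAIVE (2.05 ± 0.42, edgeR adjusted p = 0.022). Mfsd2a, the lipid transporter of that barrier, had 5.27 and 6.09 CPM in PFC CUMS and 1.05 and 0.867 CPM in PFC NAIVE. Emcn, Ly6c1 and Mfsd2a entered the test through PFC CUMS alone, and genes of that kind had to have higher raw counts there. Other endothelial genes differed between the PFC NAIVE libraries. Ly6c1 lost its call without PFC CUMS 2 or PFC NAIVE 1, Cldn5 without either PFC CUMS library or PFC NAIVE 1, and Mfsd2a without any one of the 4. Podxl, a sialomucin of the vessel lumen, had 12.4 and 18.2 CPM in PFC CUMS and 0.263 and 11.8 CPM in PFC NAIVE. Abcb1a, the drug efflux pump, had 14.1 and 11.6 CPM in PFC CUMS and 0 and 4.46 CPM in PFC NAIVE. The list stood at 3.90 and 4.12 log2 CPM in PFC CUMS and 1.63 and 3.0 log2 CPM in PFC NAIVE, and 26 of the 34 genes were lower in PFC NAIVE 1 than in PFC NAIVE 2. Its median was 0.98 without PFC NAIVE 1 and 2.34 without PFC NAIVE 2. In 25 of the 34 genes both PFC CUMS values lay above both PFC NAIVE values, against 22.6% of all tested genes. In 1 gene both lay below (21.4% of all). The groups overlapped in 8, Pecam1, Slc2a1, Bsg and Ly6e among them.

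Mural cells, the pericytes and smooth muscle of vessels, had a median of 2.05 over 15 tested genes of 17, and 0 passed. The PFC CUMS values lay above in 14 of the 15, against 22.6% of all tested genes. However, 5 of the 15, Myh11 among them, entered the test through PFC CUMS alone and had to have higher raw counts there. Rgs5, a pericyte marker, had 20.9 and 26.6 CPM in PFC CUMS and 3.16 and 6.32 CPM in PFC NAIVE (log2 fold change 2.31 ± 0.62, edgeR adjusted p = 0.123). Myh11, smooth muscle myosin, had 5.19 and 7.84 CPM in PFC CUMS and 0 counts in PFC NAIVE, so it was at least 33.4-fold higher against a floor of 3 counts over the group, yet its adjusted p was 0.0541 (edgeR). The list's median was 1.51 without PFC CUMS 2, and 1.82 to 2.35 with another of the 4 left out.

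In lists of other brain cells the PFC NAIVE libraries stood far apart. Oligodendrocyte genes had a median of 0.10 over 17 tested genes, 0 were called, and 16 had overlapping groups. The list stood at 4.40 and 4.59 log2 CPM in PFC CUMS and 4.92 and 3.37 log2 CPM in PFC NAIVE. Neuronal genes had a median of -0.16 over 20 tested genes, and 1 rose (5.0%, against 0.85% of all tested genes). That gene, Stmn2, had 1.39 and 2.31 CPM in PFC CUMS and 0 counts in PFC NAIVE (at least 9.46-fold, edgeR adjusted p = 0.0476). Its call was lost with any library left out. Gad1, which makes GABA, had 3.18 and 2.12 CPM in PFC CUMS and 11.3 and 0 CPM in PFC NAIVE. The PFC NAIVE libraries thus differ widely in both lists, PFC NAIVE 1 being the higher in all 17 oligodendrocyte genes, and 1 library sets both medians. The oligodendrocyte median was 1.09 without PFC NAIVE 1 and -0.42 without PFC NAIVE 2, and the neuronal median 1.10 and -0.595.

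Lists of blood and border cells had 0 calls in either direction. Border-associated macrophages had a median of 0.56 (0.32 without PFC CUMS 2), and Mrc1, their mannose receptor, had 288 and 352 CPM in PFC CUMS and 201 and 219 CPM in PFC NAIVE (0.61 ± 0.42, edgeR adjusted p = 0.562). Neutrophil genes had a median of -1.02 (-0.66 without PFC NAIVE 2), with 10 of 12 genes below PFC NAIVE in both PFC CUMS libraries, against 21.4% of all tested genes. S100a9, an abundant protein of neutrophil cytoplasm, had 722 and 593 CPM in PFC CUMS and 1037 and 1504 CPM in PFC NAIVE (-0.95 ± 0.98, edgeR adjusted p = 0.711). Csf3r, a receptor that microglia also express, was at 0.10. The T cell genes Cd3d, Cd3e and Cd3g had 0 counts in all 4 libraries.

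**Figure D3:**
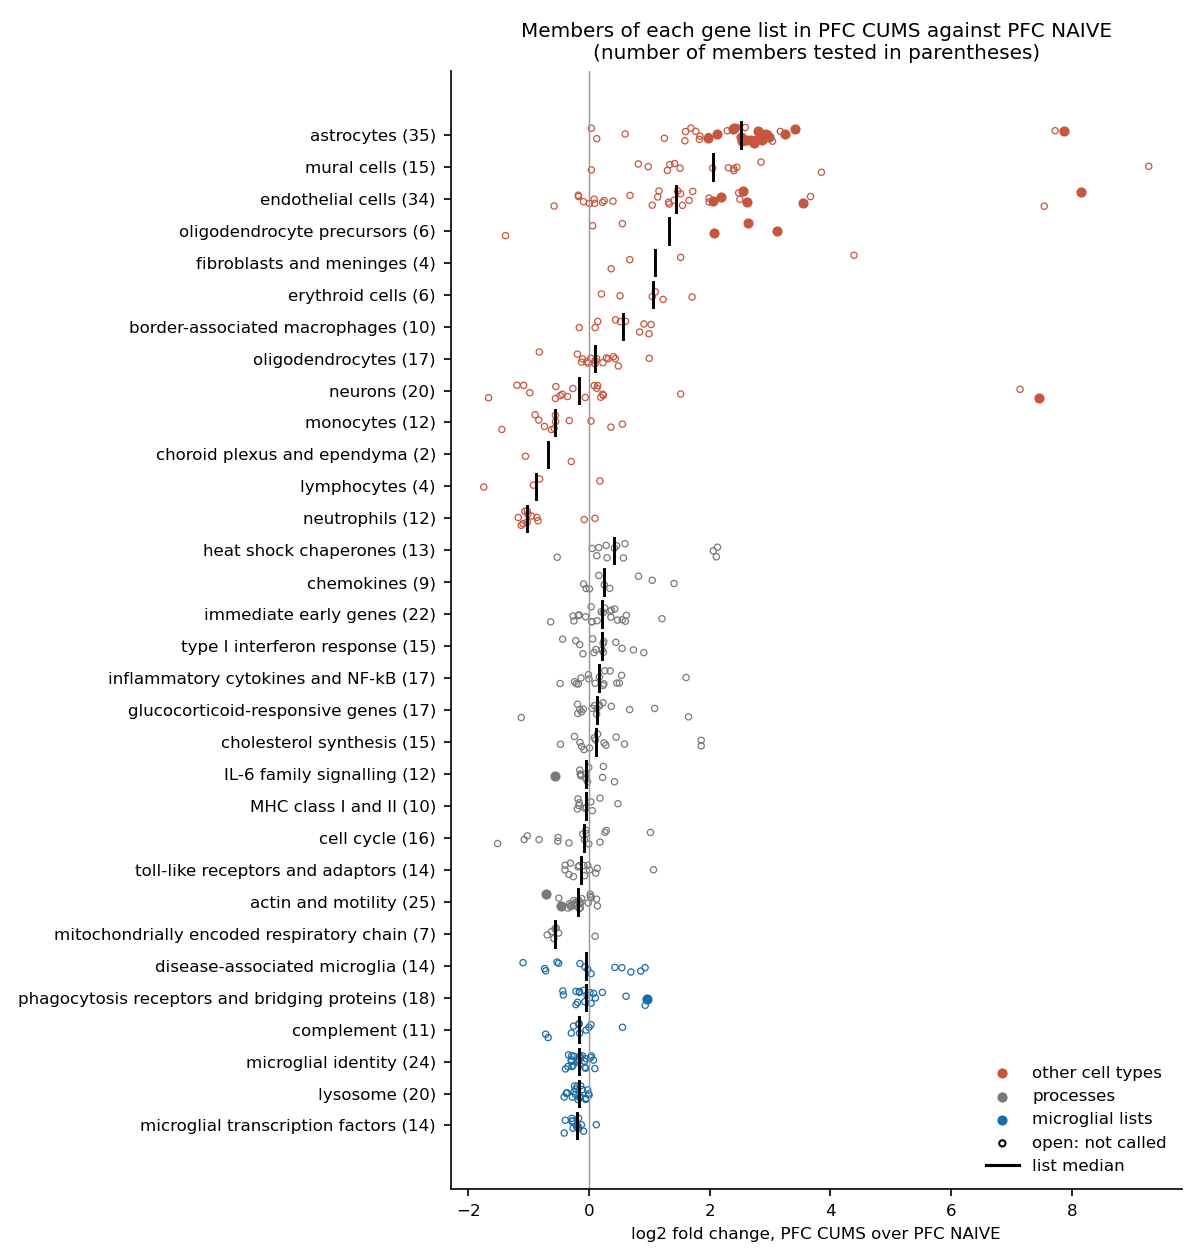
Log2 fold change, PFC CUMS over PFC NAIVE (x), of every tested member of 32 gene lists (y), with filled points for genes called by edgeR and a bar at the list median. Astrocyte (2.52), mural (2.05) and endothelial (1.44) medians lie far to the right, and the microglial lists lie between -0.20 and -0.04. Points beyond 7 belong to genes with 0 counts in PFC NAIVE, whose fitted fold is no bound.

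Microglial genes had small differences, more often downward. Over the microglial lists 53 of 95 genes lay below PFC NAIVE in both PFC CUMS libraries (21.4% of all tested genes) and 10 above (22.6%). Of the 95, 26 had an unadjusted edgeR p under 0.05 (13.3% of all). Their median was -0.16, against -0.09 over all 1986 tested genes with a mean above 100 CPM. In the identity list 0 of 24 genes were called, 12 of 24 lay wholly below PFC NAIVE, and the median was -0.16, or -0.087 without PFC NAIVE 1 and -0.256 without PFC NAIVE 2. Cx3cr1, the fractalkine receptor, had 7680 and 8101 CPM in PFC CUMS and 9888 and 9436 CPM in PFC NAIVE (-0.29 ± 0.09, edgeR adjusted p = 0.149). Tmem119 had 3897 and 4483 CPM in PFC CUMS and 4974 and 4416 CPM in PFC NAIVE, so its groups overlap. Trem2, the lipid receptor needed for the disease-associated state, had 1410 and 1515 CPM in PFC CUMS and 1508 and 1358 CPM in PFC NAIVE. Siglech was the only member of this list above PFC NAIVE in both PFC CUMS libraries, by 0.10 ± 0.10. When the libraries were scaled by the summed counts of this list, its median became 0.02 and that of all tested genes became 0.18.

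Other microglial lists also had small medians. Transcription factors of microglia had a median of -0.20 over 14 genes with 0 calls, and 11 of 14 lay below PFC NAIVE in both PFC CUMS libraries, against 21.4% of all tested genes. Runx1, a factor of microglial development, had 151 and 148 CPM in PFC CUMS and 205 and 187 CPM in PFC NAIVE (-0.39 ± 0.11, edgeR adjusted p = 0.0873). Sall1, which keeps microglial identity, gave -0.20 ± 0.09 (edgeR adjusted p = 0.369). Lysosomal genes had a median of -0.17 over 20 genes, disease-associated microglial genes -0.04 over 14, and complement genes -0.16 over 11, with 0 calls in each. With a library left out these ran from -0.24 to -0.08 for lysosomal genes, from -0.15 to 0.10 for disease-associated genes and from -0.24 to -0.07 for complement genes. In the disease-associated list the integrin Itgax had 27.7 and 29.0 CPM in PFC CUMS and 51.7 and 41.2 CPM in PFC NAIVE (edgeR adjusted p = 0.113).

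The exception among the microglial lists was Mfge8, a secreted protein that bridges dying cells to phagocytes. It had 64.1 and 80.2 CPM in PFC CUMS and 38.4 and 35.5 CPM in PFC NAIVE (log2 fold change 0.96 ± 0.20, edgeR adjusted p = 0.0202). The call was lost without any one of the 4 libraries (edgeR adjusted p 0.0589 to 0.281). Astrocytes also make Mfge8, and the part of their RNA in this rise was not tested. In the HC its log2 fold change, CUMS over NAIVE, was 0.01.

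Of the 15 genes that fell, 12 encode proteins. Il6st, the shared signalling subunit of IL-6 family receptors, had 583 and 488 CPM in PFC CUMS and 786 and 798 CPM in PFC NAIVE (-0.57 ± 0.12, edgeR adjusted p = 0.0201). Cd180, a toll-like surface receptor of myeloid cells, had 316 and 273 CPM in PFC CUMS and 447 and 445 CPM in PFC NAIVE (-0.60 ± 0.14, edgeR adjusted p = 0.0493). Slc38a1, a glutamine transporter, had 102 and 104 CPM in PFC CUMS and 152 and 148 CPM in PFC NAIVE (-0.55 ± 0.11, edgeR adjusted p = 0.0176). The groups do not overlap in any of the 15 falls, and PFC CUMS lay wholly below in 21.4% of all tested genes. The calls were made on these same values, so this adds no support. In Il6st, Cd180 and Slc38a1 the groups are apart by more than the gap between replicates. Orai1, the pore of store-operated calcium channels, had 162 and 169 CPM in PFC CUMS and 240 and 223 CPM in PFC NAIVE. Actn1 and Marcks, both tied to the actin cortex, were the 2 of 25 actin and motility genes that fell (8.0%, against 0.116% of all tested genes). Actn1 had 68.5 and 72.0 CPM in PFC CUMS and 107 and 122 CPM in PFC NAIVE. Gsk3b, Apbb1ip, Ebf3, Cpox, Slc16a10 and Pcdhgb2 completed the coding falls, with log2 fold changes from -0.68 to -0.42, and 43.4% of the exon bases of Pcdhgb2 are shared with other genes on its strand.

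The coding falls depended on the scaling. Scaled by the microglial identity list, 148 genes were called higher and 3 lower (98.0% higher, against 88.0% of the 125 calls). Under that scaling Actn1 gave -0.53 (edgeR adjusted p = 0.124), Il6st -0.39 (0.183) and Gsk3b -0.26 (0.378), the other coding falls lying between these p-values. Of the 15 falls 0 passed with every library left out.

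The 3 falls that passed under both scalings were RNAs with no protein product, named here after their values were seen. Gm42418, annotated as a lincRNA at chr17:39846958-39848788 (GRCm38), had 3647 and 4187 CPM in PFC CUMS and 11692 and 11844 CPM in PFC NAIVE (log2 fold change -1.59 ± 0.21, edgeR adjusted p = 0.0058). CT010467.1, annotated as rRNA on the opposite strand of the same place, had 3.33 and 6.0 CPM in PFC CUMS and 19.5 and 17.2 CPM in PFC NAIVE (-1.99 ± 0.31, edgeR adjusted p = 0.00479). Gm15564, on chromosome 16, had 8.52 and 8.49 CPM in PFC CUMS and 30.3 and 24.3 CPM in PFC NAIVE (-1.68 ± 0.31, edgeR adjusted p = 0.0154). Gm42418 had 6837 to 8047 CPM in PFC CUMS_M and 5989 to 12101 CPM over the 8 HC libraries, all above PFC CUMS. Gm15564 differed in this, with 3.37 to 12 CPM over the HC libraries. Leaving out PFC CUMS 1 ended the calls of all 3 genes (edgeR adjusted p 0.0589 for Gm42418, 0.0734 for CT010467.1 and 0.112 for Gm15564), leaving out PFC CUMS 2 those of Gm42418 (0.0539) and Gm15564 (0.13), and leaving out PFC NAIVE 1 that of Gm15564 (0.0982). The exons of Gm42418 are covered to 99.5% by genes on the other strand. The libraries were made from polyA RNA, and whether the share of ribosomal RNA left in them had a part in these values was not tested. Gm26917, a lincRNA beside them, was level, with 102 and 112 CPM in PFC CUMS and 127 and 83.9 CPM in PFC NAIVE. Lars2, a coding gene on chromosome 9 examined with them, had 276 and 254 CPM in PFC CUMS and 689 and 599 CPM in PFC NAIVE. Its log2 fold change of -1.28 ± 0.30 did not pass (edgeR adjusted p = 0.0888).

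Genes tied to acute activation were mostly higher in PFC CUMS without passing. Among 13 heat shock chaperones 0 were called, the median was 0.42, and 10 lay above PFC NAIVE in both PFC CUMS libraries, against 22.6% of all tested genes. Hspa1a, inducible HSP70, had 230 and 128 CPM in PFC CUMS and 51.4 and 34.9 CPM in PFC NAIVE (2.06 ± 0.98, edgeR adjusted p = 0.405). Its near-identical copy Hspa1b gave 2.11 ± 0.98, and reads may be split between them. Immediate early genes had a median of 0.22 over 22 genes with 0 calls, and Atf3 had 516 and 403 CPM in PFC CUMS and 160 and 236 CPM in PFC NAIVE (1.21 ± 0.58, edgeR adjusted p = 0.402). In 21 of these 22 genes PFC NAIVE 1 lay below PFC NAIVE 2, and the median was 0.37 without PFC NAIVE 2. The list stood at 8.11 and 7.95 log2 CPM in PFC CUMS and 7.64 log2 CPM in PFC NAIVE 1. PFC NAIVE 2 lay between the PFC CUMS levels, so the groups overlap in this mean. In 13 of the 22 genes both PFC CUMS values lay above both PFC NAIVE values, against 22.6% of all tested genes.

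Inflammatory genes had 0 calls among 17 cytokine and NF-kB genes (median 0.17) and 9 chemokines (0.25). The chemokine median was 0.43 without PFC CUMS 1, and it was 0.48 and 0.0313 when PFC NAIVE 1 or PFC NAIVE 2 was left out. Il1b, interleukin 1 beta, had 49.4 and 47.5 CPM in PFC CUMS and 28.3 and 38.3 CPM in PFC NAIVE (0.54 ± 0.29, edgeR adjusted p = 0.438). Tnf had 28.5 and 35.2 CPM in PFC CUMS and 28.8 and 27.6 CPM in PFC NAIVE, so its groups overlap. Glucocorticoid-responsive genes had a median of 0.13 over 17 genes with 0 calls, and Fkbp5, induced by stress hormones in many tissues, had 132 and 118 CPM in PFC CUMS and 143 and 130 CPM in PFC NAIVE. Leaving out PFC CUMS 2 gave this list a median of 0.00873, leaving out PFC NAIVE 1 gave 0.0206, and PFC NAIVE 2 gave 0.201. Mitochondrially encoded genes went the other way, with a median of -0.56 over 7 tested genes, 6 of them below PFC NAIVE in both PFC CUMS libraries (21.4% of all tested genes) and 0 called. The median was -0.29 without PFC NAIVE 1. mt-Nd1 had 714 and 964 CPM in PFC CUMS and 1626 and 1079 CPM in PFC NAIVE, PFC NAIVE 1 being the high one.

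A few rises belong to no cell type list and had HC log2 fold changes near 0, while the difference between regions did not pass for any of them. Zfp410, a zinc finger transcription factor, had 34.1 and 31.1 CPM in PFC CUMS and 14.7 and 13.5 CPM in PFC NAIVE (log2 fold change 1.21 ± 0.18, edgeR adjusted p = 0.00261, at most 0.0292 with a library left out). It had 26.6 to 27.7 CPM in PFC CUMS_M, 20.5 to 30.0 CPM in HC CUMS, and 28.4 and 28.1 CPM in HC NAIVE, so PFC NAIVE lay below the other 13 libraries. Slc20a1, a phosphate transporter, had 29.0 and 26.7 CPM in PFC CUMS and 16.0 and 13.4 CPM in PFC NAIVE (0.92 ± 0.18, edgeR adjusted p = 0.0174). Cdk5, a kinase best known in neurons, had 18.4 and 16.7 CPM in PFC CUMS and 9.08 and 8.92 CPM in PFC NAIVE (0.97 ± 0.21, edgeR adjusted p = 0.0281). Slc20a1 and Cdk5 lost their calls in 2 and 3 of the 4 leave-outs, and in the HC they gave 0.03 and 0.10.

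PFC NAIVE had the lowest astrocyte levels of the 15 libraries. In 17 of 35 astrocyte genes both PFC NAIVE values lay below those of all 13 other libraries, against 3.99% of all tested genes. Astrocyte levels were 4.21 to 4.39 log2 CPM in PFC CUMS, 2.38 to 3.35 in PFC CUMS_M and 1.84 to 1.99 in PFC NAIVE. In the HC they were 3.91 to 4.24 in CUMS, 3.47 to 4.25 in CUMS_M and 3.09 to 3.42 in NAIVE. Aldh1l1 had 10.1 and 9.32 CPM in PFC CUMS, 5.14 to 6.58 CPM in PFC CUMS_M, and 5.17 and 5.04 CPM in HC NAIVE, all above the 0.658 and 1.36 CPM of PFC NAIVE. In 33 of the 35 genes the mean of PFC CUMS_M lay between those of PFC CUMS and PFC NAIVE. That order was seen in 5573 of all 12934 tested genes, 20 of 24 microglial identity genes and 14 of the 15 falls. The comparison shares both groups, so no test was made.

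**Figure D4:**
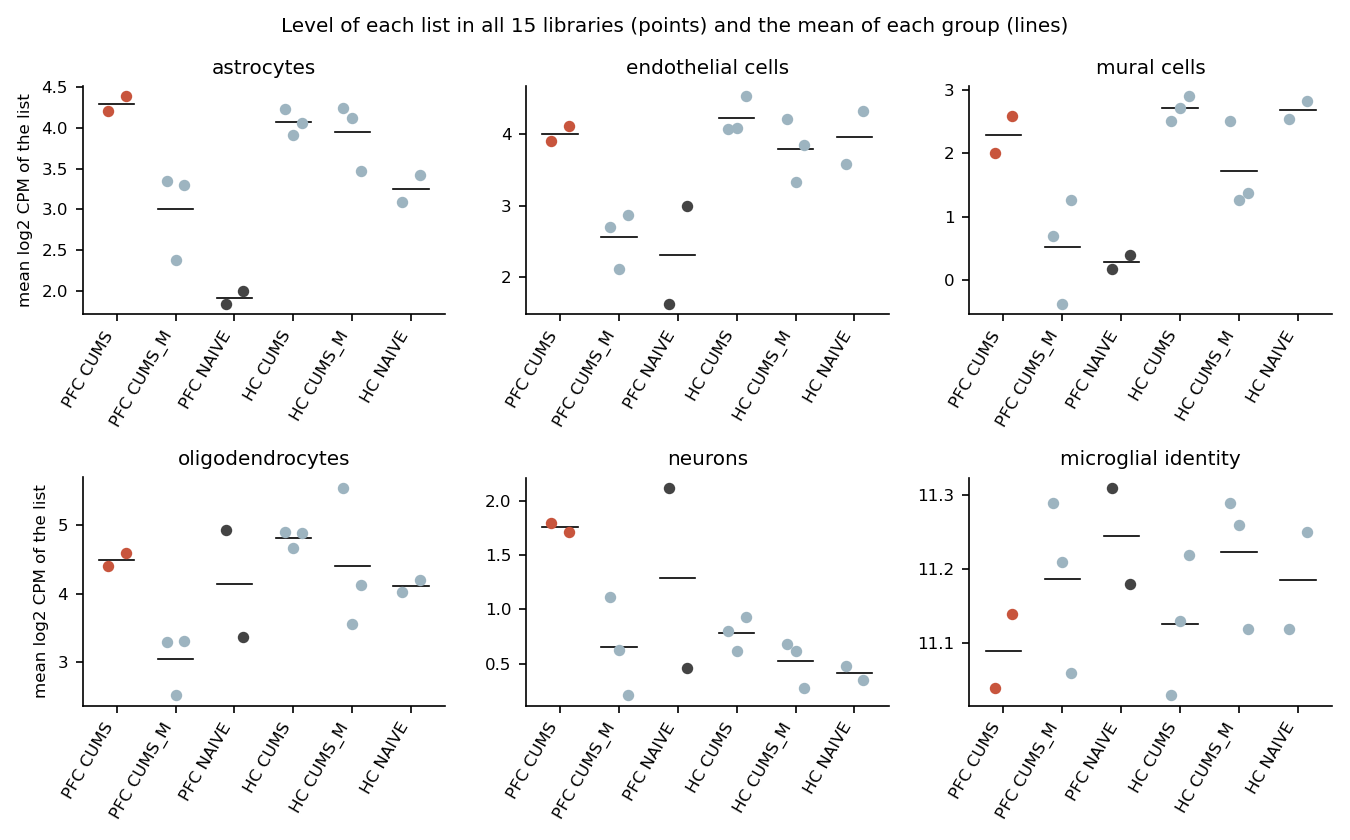
Mean log2 CPM (y) of the tested members of 6 lists in each of the 15 libraries, by group, with lines at the group means. PFC NAIVE is lowest for astrocytes (1.84 and 1.99), its libraries are apart for endothelial, oligodendrocyte and neuronal genes, and the microglial identity lists span 11.03 to 11.31 only.

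The HC libraries shared the fit and its estimate of spread with the PFC calls, and without them and PFC CUMS_M the 4 PFC libraries alone gave 26 calls. Their own CUMS over NAIVE effect had the same direction for most rises. Of the 110 genes called higher in the PFC, 101 had a log2 fold change above 0 for HC CUMS over HC NAIVE, against 49.4% of all tested genes. The size was smaller, with a median of 0.66 in the HC and 2.91 in the PFC, where the calls had selected large values. Of the 15 falls, 11 were below 0 in the HC, against 6547 of all 12934 tested genes, and their HC median was -0.10. Astrocyte genes had a median of 0.92 in the HC, endothelial genes 0.25 and mural genes 0.05. Tested directly, the effect of CUMS in the PFC minus that in the HC passed for 0 genes with edgeR (0.0%). At an unadjusted p under 0.05 it took in 710 genes (5.49%), and the DESeq2 test passed 26. The smallest adjusted p was 0.161, shared by Zfp410 (PFC minus HC 1.34 ± 0.23) and Gm42418 (-1.88 ± 0.29). Without PFC NAIVE 2 edgeR called 108 genes in this test, and without HC NAIVE 2 it called 3.

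**Figure D5:**
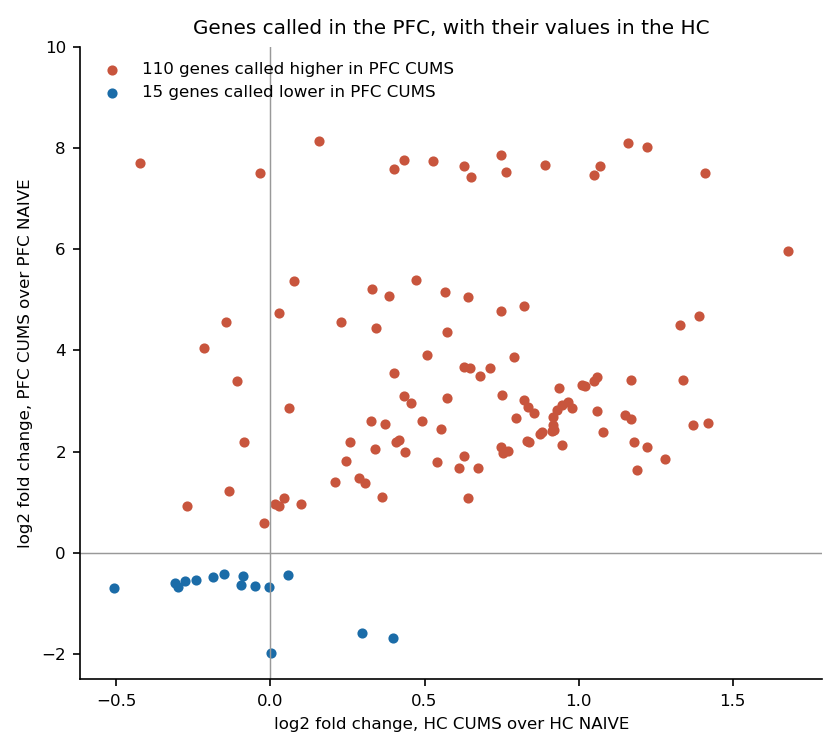
Log2 fold changes, CUMS over NAIVE, of the 125 called genes in the PFC (y) and in the HC (x). Of the 110 higher genes 101 lie right of 0, at smaller values than in the PFC, and the noncoding RNAs Gm42418 and Gm15564 are the falls farthest right (0.30 and 0.40).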

How the data were processed

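Per the labels' protocols and the series' design text, CD11b+ cells were sorted by FACS and stranded polyA libraries were sequenced in paired ends. Per the submitters' processing notes, the tools were Trimmomatic 0.36, STAR 2.6.1b, Picard 2.17.1, featureCounts 1.5.3 and DESeq2 1.24.0, with the build mm10/GRCm38; the strand setting and annotation release are not given in the sources used here. The authors deposited raw counts per gene, and every value here starts from them. All 53412 identifiers matched a symbol in GENCODE M21. Genes with 10 or more counts in 2 or more of the 4 PFC libraries were fitted with edgeR 4.0.16 (TMM, robust quasi-likelihood, 15 libraries, 6 group means, R 4.3.3), Benjamini-Hochberg over all tested genes, at 0.05. The fit was tested on simulated data. DESeq2 1.42.0 was an alternative. Errors of log2 fold changes (SE) were derived from the edgeR test, as the absolute log2 fold change over the square root of its F statistic. A fold against 0 counts uses a floor of 3 counts over the group and covers counting error only.

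The naming rule takes, among called genes with a regular symbol and groups that do not overlap, the 12 largest rises, the 10 largest falls and the 10 of highest CPM. It adds up to 4 called members of each list, or the 2 of smallest p, and a fixed set of markers. Other members of the lists are named for their role, after their values were seen. The comparison, lists and rule were chosen with earlier results of these data known. Figures used matplotlib 3.10.9. Some genes are not reported here.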

Additional observations from a re-analysis of the deposited data

How the results depend on the processing

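The 125 calls became 402 with no count filter, 364 with the DESeq2 Wald test and 26 in a fit of the 4 libraries alone, and 12 to 558 with a library left out. They were 123 with DESeq2 size factors, 119 with the filterByExpr filter, 151 with scaling by the microglial list, and, added after the data were seen, 117 with the 4 libraries thinned to the smallest total. The replicate block gave 87 in all 15 libraries and 79 in the 4 alone, and crossed numbers gave 105, the 4-library block fits also being added after the data were seen; the labels share only a number, and deviations of same-numbered libraries correlated at -0.021 over all genes and -0.188 over genes of 10 CPM or more. The region difference, with 0 calls, gave 57 with no filter and 26 with DESeq2, and 0 to 108 with a library left out.

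Scaling by the microglial list moved the medians of the microglial identity list to 0.0166 and of astrocytes to 2.70, and turned those of phagocytosis genes to 0.13, IL-6 signalling to 0.14 and neurons to 0.0208. Neurons also turned with the replicate block in the 4 libraries (0.26), with crossed numbers (0.24) and with thinning (0.10), and without PFC NAIVE 1 (1.10, against -0.595 without PFC NAIVE 2). With a library left out the medians ran from -0.257 to -0.0855 for microglial identity, 2.39 to 2.56 for astrocytes and 0.98 to 2.34 for endothelial cells. With 2 libraries a group, a lone sample is assumed to vary like the other groups. The causes were not tested. Genes under 10 CPM rest on few counts.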
